A study of Mus musculus with 6 samples.

Results

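The genes described here are 10 genes of interferon-gamma and type 1 helper T cells: Ifng, Tbx21, Eomes, Stat4, Il12rb1, Il12rb2, Il18r1, Il18rap, Cxcr3 and Runx3. They were chosen by name, as the probe sets whose platform gene symbol is one of these, and each gene was read from the brightest of its probe sets, by mean log2 signal. All 10 had a probe set, 13 probe sets in all, out of 18193 genes named on the array. The series measured RNA of mouse CD4 T cells with 1 Affymetrix array for each of 3 populations and 2 genotypes, to ask what loss of Furin does to T cells. The mice were C57BL/6 and 10 to 11 weeks old, and all of them carried loxP-flanked Fur alleles on both chromosomes (Fur flox/flox). The control mice, called WT in the sample titles, had no Cre, and the Furin cKO (conditional knockout) mice also carried CD4 cre, in which Cre is driven from the Cd4 gene that thymocytes switch on before they become CD4 or CD8 cells. Activated cells were CD62L+ CD44- naive cells stimulated for 2 days with anti-CD3 and anti-CD28 coated to the plate at 5 µg/ml of either. Memory cells (CD62L- CD44+) and regulatory cells (CD25+ FoxP3+) were sorted and not cultured. No value has a replicate, and the labels do not say whether an array held RNA of 1 mouse or of several.

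Type 1 helper cells are the CD4 T cells that secrete interferon-gamma, the cytokine that arms macrophages against microbes inside cells. Interleukin 12 acts through a receptor made of the chains Il12rb1 and Il12rb2 and through the transcription factor STAT4, and the T-box factors T-bet (Tbx21) and eomesodermin (Eomes) with RUNX3 switch on Ifng. Interleukin 18, read by the receptor chains Il18r1 and Il18rap, adds to interleukin 12 in raising interferon-gamma, and the chemokine receptor CXCR3 takes these cells to inflamed tissue.

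The promoter windows of Ifng, which differed most between the genotypes, and of Il18r1, Il18rap and Cxcr3, which differed most between the populations, are printed because the results turn on these 4 genes. The sequences are RefSeq's, build GRCm38.p6, from 250 bases before to 50 bases after an annotated start, 5′ to 3′ on the strand of the gene. The table held 13 windows for 9 of the 10 genes. The Ifng window is chr10:118440796-118441095 on the plus strand, and the Il18r1 window, 1 of 3 for that gene and the one with a RUNX match, is chr1:40465371-40465670 on the plus strand. The Il18rap window is chr1:40515112-40515411 on the plus strand, and that of Cxcr3 is chrX:101734098-101734397 on the minus strand. Capitals mark matches to the motifs searched.
Ifng: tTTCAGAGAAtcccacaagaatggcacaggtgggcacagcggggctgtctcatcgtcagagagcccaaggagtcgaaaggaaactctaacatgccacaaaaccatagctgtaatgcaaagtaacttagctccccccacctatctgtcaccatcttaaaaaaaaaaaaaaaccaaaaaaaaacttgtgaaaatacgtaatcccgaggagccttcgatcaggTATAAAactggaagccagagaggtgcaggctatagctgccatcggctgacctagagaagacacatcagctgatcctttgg
Il18r1: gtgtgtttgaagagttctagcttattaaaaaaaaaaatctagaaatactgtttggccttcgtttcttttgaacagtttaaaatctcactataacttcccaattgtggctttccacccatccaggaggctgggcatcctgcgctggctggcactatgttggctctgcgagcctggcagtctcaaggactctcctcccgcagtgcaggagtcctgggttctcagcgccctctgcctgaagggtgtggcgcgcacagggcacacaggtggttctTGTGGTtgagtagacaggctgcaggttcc
Il18rap: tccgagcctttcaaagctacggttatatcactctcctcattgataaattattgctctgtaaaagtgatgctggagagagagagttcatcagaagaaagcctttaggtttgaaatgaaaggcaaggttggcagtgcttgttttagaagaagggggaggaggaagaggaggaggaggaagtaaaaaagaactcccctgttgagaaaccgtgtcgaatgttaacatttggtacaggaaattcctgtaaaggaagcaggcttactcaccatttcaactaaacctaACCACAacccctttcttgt
Cxcr3: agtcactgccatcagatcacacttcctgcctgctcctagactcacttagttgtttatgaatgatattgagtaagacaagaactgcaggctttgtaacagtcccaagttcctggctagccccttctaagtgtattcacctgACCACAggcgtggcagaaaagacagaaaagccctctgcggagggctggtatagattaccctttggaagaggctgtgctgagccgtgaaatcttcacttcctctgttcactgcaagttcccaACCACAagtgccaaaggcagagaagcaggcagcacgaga
Motifs were searched on both strands. For RUNX factors the letters were TGTGGT. They stood at positions 141 and 262 of the Cxcr3 window, 272 of the Il18r1 window and 282 of the Il18rap window, counted from the 5′ end. A window of Runx3 held them too, so that they were found in 4 of 13 windows, against 16.8% of all 32851 windows of this length. The Ifng window held a TATA box, TATAAA, at position 221, as do 13.6% of all windows. It also held the STAT motif TTCNNNGAA at position 2, as do 8.30% of all windows. Windows of Il18r1 and Il12rb2 also held the STAT motif. The T-box motif AGGTGNGA, present in 5.43% of all windows, had no match in the 13. Nor had TGANTCA, the motif of AP-1, which 7.81% of all windows hold. No matches of different motifs overlapped. Il18r1 and Il18rap are neighbours on chromosome 1, with 0 protein-coding genes between them in RefSeq.

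Signals are linear intensities, and the floor below which a signal was not read is 47.6, the 40th percentile of the signals on all arrays together, controls left out. The labels were checked against defining markers. Cd3d read from 6852 to 38862 and Cd4 from 1821 to 3768 on the 6 arrays. Foxp3, the factor that defines regulatory cells, read 50.4 and 33.8 on the regulatory arrays, control first, but 1358 and 1116 in memory and 27.0 and 11.9 in activated cells. Against the memory arrays other regulatory genes followed the label. Il2ra read 4277 and 3702 on the regulatory arrays against 1190.3 and 626.8 on the memory arrays, and Ctla4 11033 and 10619 against 3340 and 2934. On the activated arrays Il2ra read 2320.5 and 2340.2 and Ctla4 11924.6 and 10316.5, so Ctla4 did not separate regulatory from activated cells. The Foxp3 signal thus goes against the regulatory label, and the arrays are called by their labels. The targeted gene, Furin, read 515.8 and 468.3 in activated and 547.2 and 410.0 in regulatory cells, 1.10-fold and 1.33-fold lower on the array labelled Furin cKO. It read 647.4 on the memory control and 2203 on the array labelled memory Furin cKO, the opposite of a loss, so that no pair showed a clear loss. The sources used here do not place its probe set relative to the deleted part. The floor was reached by 49.4% and 49.8% of probe sets on the activated arrays and by 62.6% to 67.4% on the other 4. The beta-actin 3'/5' ratio, a measure of RNA integrity, was 1.93 on the memory control, 1.56 on the memory Furin cKO array and 1.22 to 1.36 on the rest. The same ratio of Gapdh ordered the arrays differently, at 1.513 and 1.477 in activated, 1.02 and 0.79 in memory and 0.64 and 0.63 in regulatory cells.

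Ifng was higher on the array labelled Furin cKO in activated and in memory cells and close to its control in regulatory cells. It read 256.6 (control) and 1695 (Furin cKO) in activated cells, 1114 and 4675 in memory cells, and 164.4 and 157.0 in regulatory cells. The activated Furin cKO array lay above the memory control array, and both regulatory arrays were the lowest of the 6. The difference was 6.61-fold in activated cells and 4.20-fold in memory cells, and in regulatory cells the control was 1.05-fold higher. With 1 array a group no test is possible within a population. A signal in bulk RNA cannot tell more transcript per cell from more cells that carry it. In activated cells at least 2-fold higher signals were read in 0.39% of the 10756 genes measured, and in memory cells in 5.62% of 14235.

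Markers of other cells that make interferon-gamma were read on the same arrays. In activated cells 1 of 11 natural killer (NK) cell markers was at or above the floor, the perforin gene Prf1 at 52.3 and 48.3. The NK-defining Ncr1 read 12.7 and 15.4 there, and the CD8 genes Cd8a and Cd8b1 48.6 and 106.7 in control and 73.5 and 129.3 in Furin cKO cells. In memory cells the summed signal of the 11 NK markers was 9732 in the control and 23708 in Furin cKO cells. Of that sum Gzma gave 479.7 and 18470.5, and of 9 NK markers measured 5 were higher and 4 lower, with a median log2 ratio of 0.24. Of all genes on the memory arrays 49.3% were higher. Klre1 read 314.1 and 497.0, Fcgr3 47.3 and 143.0, Klra8 2.3 and 103.9 and Ncr1 75.8 and 89.3. The control signals of Fcgr3 and Klra8 were below the floor. The 4 lower were Tyrobp at 6299 and 2679.9, Fcer1g at 2073.9 and 1373.3, Prf1 at 327.2 and 234.8 and Khdc1a at 59.5 and 51.1. Klra1 was below the floor on all 6 arrays. Of 10 B cell markers 6 were higher on the memory Furin cKO array (median 0.68), among them Ms4a1 at 297.4 and 1285, although their sum, led by Ighm, was 16928 and 14210.0. The 10 granulocyte markers summed to 2337 and 8274 (7 of 9 measured higher, median 2.23), and the 6 plasma cell markers to 12532 and 25534 (4 of 6 higher, median 0.55). The 15 myeloid and dendritic cell markers summed to 58077 and 29955 (3 of 15 higher, median -0.75), the 4 innate-like T cell markers to 4012 and 915.8 (0 of 4 higher, median -1.48), and Cd8a and Cd8b1 to 1070.2 and 697.0. Their part in the result was not tested.

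**Figure D1:**
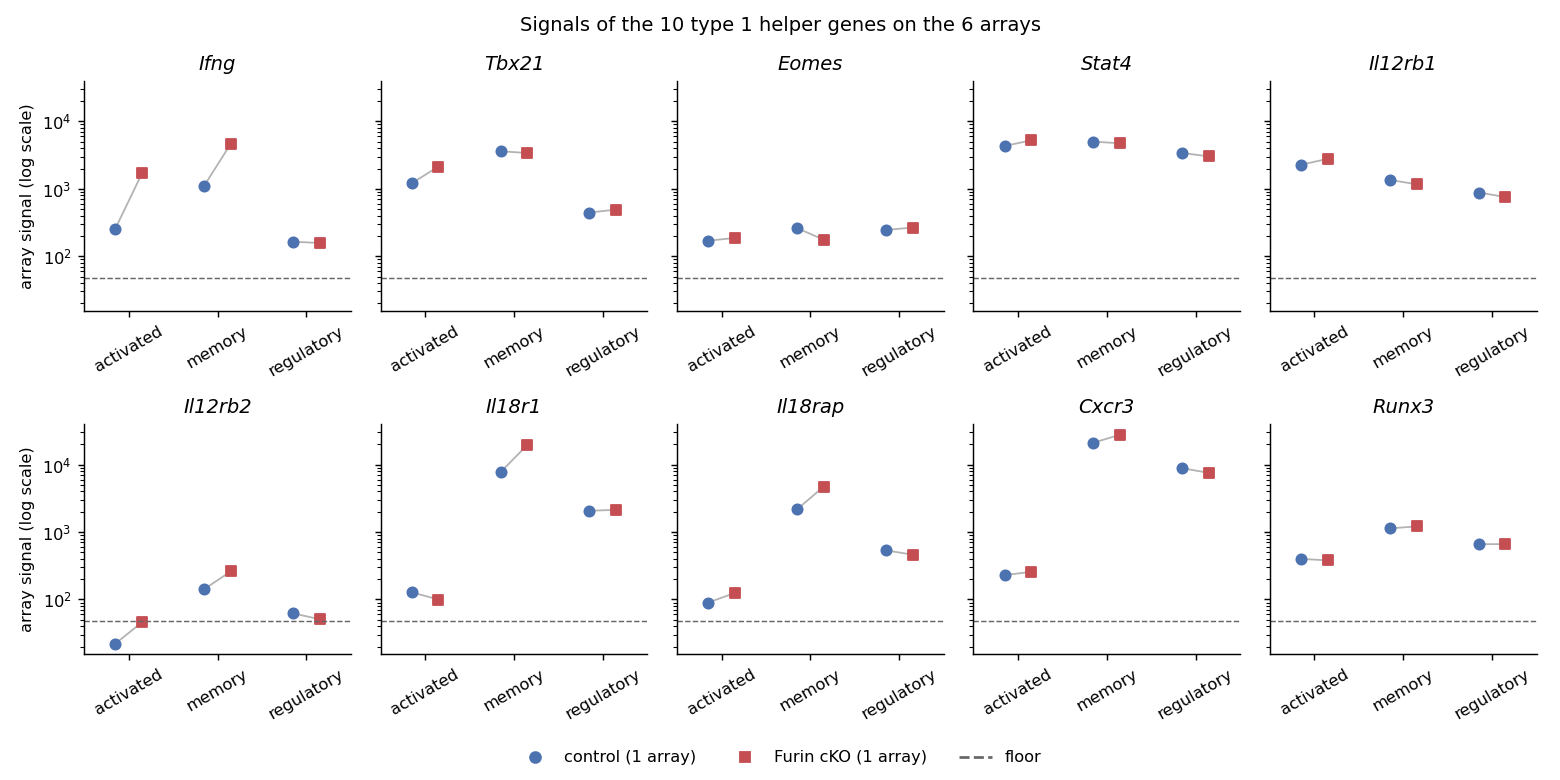
Signal of each of the 10 genes (log axis) on the 6 arrays, by population on the horizontal axis. Circles are control arrays, squares Furin cKO arrays, 1 array each and joined within a population, and the dashed line is the floor of 47.6. Ifng separates the genotypes in activated and memory cells, whereas Cxcr3, Il18r1 and Il18rap separate activated cells from the other populations.

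Tbx21, which encodes T-bet, the factor that directs type 1 differentiation, read 1208 (control) and 2140.0 (Furin cKO) in activated cells, 3616 and 3396 in memory cells, and 444.6 and 492.6 in regulatory cells. The genotypes stood 1.77-fold apart in activated cells, under the 2-fold mark, and nearly level in the other populations, so that the memory array pair with a 4.20-fold difference in Ifng had none of that size in Tbx21. The ranges of the 3 populations did not overlap, with memory cells highest and regulatory cells lowest. Eomes, the related T-box factor of cytotoxic and memory cells, was dim everywhere. It read 170.1 and 186.8 in activated, 261.6 and 175.8 in memory and 244.9 and 266.7 in regulatory cells, control first, and the arrays of different populations overlapped. Its second probe set read 82.1 and 132.9 in activated, 145.6 and 128.5 in memory and 124.5 and 159.1 in regulatory cells. Both probe sets had the Furin cKO array higher in activated and regulatory cells and lower in memory cells.

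Stat4, which carries the interleukin 12 signal to the nucleus, read 4329 and 5232 in activated, 5019 and 4727 in memory and 3402 and 3024 in regulatory cells. No pair differed by more than 1.21-fold, and its whole range over the 6 arrays was 1.73-fold. Runx3, a partner of T-bet at the Ifng gene and the factor that silences Cd4 in CD8 cells, read 400.2 and 379.3 in activated, 1132 and 1212 in memory and 660.2 and 662.2 in regulatory cells. The genotypes differed by at most 1.07-fold, while the populations were well apart. Another Runx3 probe set was dim and read higher on each Furin cKO array, at 10.4 and 71.5, 23.8 and 47.0, and 13.8 and 62.7. It was below the floor on all 3 control arrays and on the memory Furin cKO array, so that the probe sets of this gene disagree. Against the floor the second gives at least 0.59 on the log2 scale in activated and at least 0.40 in regulatory cells.

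The chains of the interleukin 12 receptor had different patterns. Il12rb1, the chain shared with the interleukin 23 receptor, read 2281 and 2782 in activated, 1355 and 1170.5 in memory and 881.8 and 756.5 in regulatory cells, and was thus brightest in activated cells. Il12rb2, the chain that gives type 1 cells their response to interleukin 12, read 22.1 and 45.9 in activated, 142.0 and 261.7 in memory and 62.1 and 50.9 in regulatory cells. Both activated arrays were below the floor, so Il12rb2 was the only member not compared in activated cells, and it was 1.84-fold higher on the Furin cKO array of memory cells.

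The interleukin 18 receptor chains shared their order of populations. Il18r1, which binds the cytokine, read 127.8 and 99.7 in activated, 7743 and 19594.5 in memory and 2069 and 2134 in regulatory cells. Il18rap, the accessory chain that starts signalling, read 89.8 and 124.9, 2168 and 4719, and 534.8 and 461.4 in these populations. On both genes the memory Furin cKO array was the brightest and the activated arrays the dimmest. In memory cells the Furin cKO array was 2.53-fold higher for Il18r1 and 2.18-fold higher for Il18rap. The second Il18rap probe set read 511.6 and 1559 there, 3.05-fold, but in regulatory cells it had the Furin cKO array higher (98.4 and 135.9), the opposite of the first. With quantile normalization the Il18r1 difference in memory cells was 0.97 on the log2 scale, just under 2-fold.

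Cxcr3, the receptor for the interferon-induced chemokines CXCL9 and CXCL10, read 230.0 and 256.6 in activated, 21121 and 27796 in memory and 8834 and 7545 in regulatory cells. The genotypes differed by at most 1.32-fold, in memory cells, against a fold range over the 6 arrays of 121. Cxcl9 itself was read only on the memory arrays, at 77.8 and 109.4, and Cxcl10 at 651.6 and 748.6 in memory and 426.6 and 418.0 in regulatory cells.

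**Figure D2:**
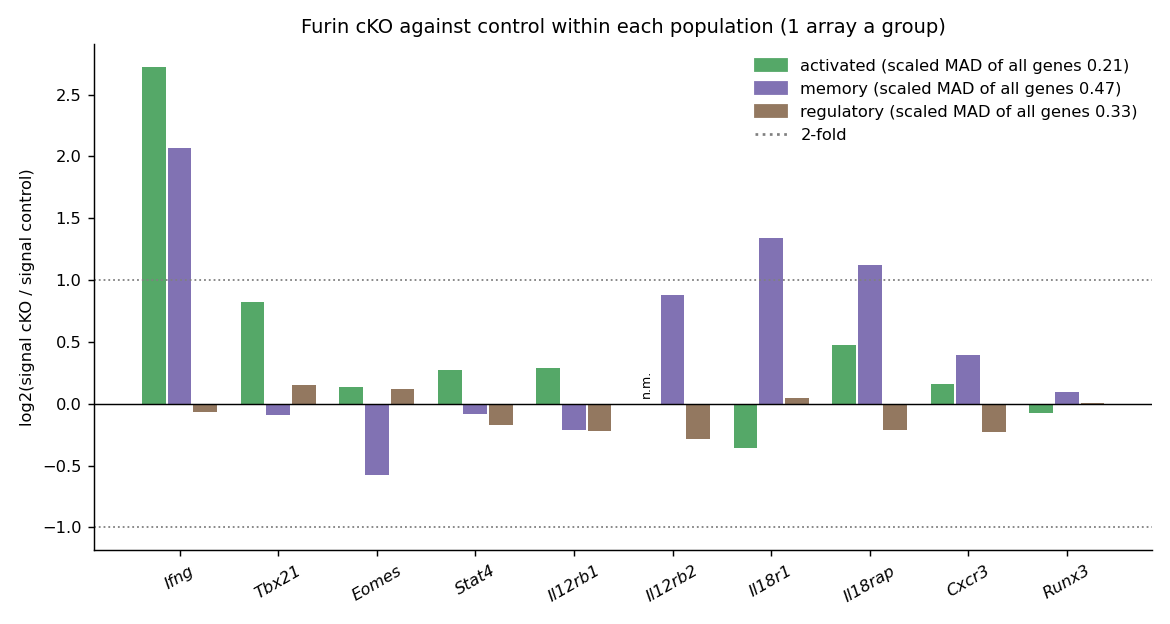
Log2 ratio of the Furin cKO over the control signal for each gene, 1 bar per population and 1 array per group; dotted lines mark 2-fold and n.m. a gene below the floor on both arrays. Ifng passes 2-fold in activated and memory cells, Il18r1 and Il18rap in memory cells, and no gene passes it in regulatory cells.

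Counted over the members, 1 of 9 measured in activated cells passed 2-fold toward the Furin cKO array (0.39% of all genes there, and 0.762% in either direction) and 3 of 10 in memory cells (5.62% of all genes, and 9.26% in either direction). In regulatory cells the count was 0 of 10, beside 3.14% of 14590 genes upward, 2.12% downward and 5.26% in either direction. No member was at least 2-fold lower in activated cells, where 0.372% of genes were, or in memory cells, where 3.64% were. By any size 7 of 9 members were higher in activated cells, 6 of 10 in memory and 4 of 10 in regulatory cells, against 48.9%, 49.3% and 48% of all genes. The members' median log2 ratio was 0.27, 0.25 and -0.12 in that order, beside medians of -0.00, -0.01 and -0.01 over all genes measured. The scaled median absolute deviation of all genes, a measure of the general scatter between the 2 arrays of a pair, was 0.21, 0.47 and 0.33. Beside Ifng, Tbx21 at 0.83, Il18rap at 0.48, Il12rb1 at 0.29 and Stat4 at 0.27 exceeded that deviation in activated cells. So did Il18r1 in the other direction, at -0.36. The share of all genes beyond it was not counted, so it marks no member out, and Il18r1 and Il18rap were dim there.

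Over the 3 populations together, limma with population and genotype as factors called 0 of 15811 genes for genotype (0%), with 444 at an unadjusted p under 0.05, none of them a member. The fit has 2 residual degrees of freedom, and its error measures how far a genotype difference varied between populations and not between animals. Ifng had the largest estimate among the members, 1.58 ± 0.59 (SE) on the log2 scale with a 95% interval from -0.03 to 3.18 and an adjusted p of 0.82, and it was higher in 2 of 3 populations. Without the regulatory arrays its estimate was 2.40 (adjusted p = 0.95) and without the memory arrays 1.33 (adjusted p = 0.95), with 0 genes called in either fit. Whether the Ifng difference in regulatory cells differs from that in the other populations was not tested.

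The signalling partners of the members were described from a list of 27 genes, 24 of which had a probe set in the annotation used here. In activated cells 12 were higher and 12 lower, with a median log2 ratio of 0.00, where 48.9% of all genes were higher. The 1 gene past 2-fold was Map2k6, which encodes the MKK6 kinase that activates p38, at 236.2 in the control and 89.0 in Furin cKO cells. Of all genes 0.372% were at least 2-fold lower there. In memory cells 8 were higher and 16 lower (median -0.21), and 2 were at least 2-fold higher. Of all genes on the memory arrays 49.3% were higher and 5.62% at least 2-fold higher. Gadd45g, a stress-induced activator of the p38 pathway in type 1 cells, read 250.2 and 1960.3 there, 7.83-fold higher, and Socs3, a feedback inhibitor of cytokine receptors, 1552 and 3284. Another Socs3 probe set had a log2 ratio of only 0.21. Gadd45g read 72.2 and 72.1 in activated and 458.0 and 434.7 in regulatory cells, level between the genotypes. Of the list 8 were higher and 16 lower in regulatory cells (median -0.06), and 0 reached 2-fold either way. Among all genes there, 48% were higher and 5.26% past 2-fold either way. Jak2 and Tyk2, the kinases of the interleukin 12 receptor, read 10689.8 and 12499.7 and 520.3 and 537.2 in activated cells, and 5497 and 4086 and 2122 and 1516 in memory cells.

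Of 17 listed transcription factors of type 1 cells, 16 had a probe set. In activated cells 7 of 14 measured were higher and none reached 2-fold, beside 48.9% and 0.762% (either way) of all genes. In memory cells 9 of 15 were higher, and 2 were at least 2-fold so, beside 49.3% and 5.62% of all genes. Bhlhe40, a factor that holds down interleukin 10 in type 1 cells, read 1929 and 5581. Zeb2, a transcriptional repressor in effector T cells that acts below T-bet, read 130.2 and 382.0. Irf8, which B cells and dendritic cells also express, was 2.37-fold lower in memory cells (4521 and 1910), as were 3.64% of all genes by at least 2-fold. On these arrays 3 of 15 myeloid and dendritic cell markers and 6 of 10 B cell markers were higher in Furin cKO. The part of such cells in the Irf8 value was not tested. In regulatory cells Zeb2 was 2.41-fold higher, at 62.2 and 149.8 (another probe set had a log2 ratio of 0.63), and 5 of 14 were higher in all. Among all genes there, 48% were higher and 3.14% at least 2-fold higher.

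Genes known to respond to interferon-gamma were higher on the Furin cKO array for 14 of 17 measured in activated cells, 16 of 20 in memory cells and 9 of 19 in regulatory cells. Of all genes 48.9%, 49.3% and 48% were higher, and the difference between populations was not tested. The sizes were small, with medians of 0.15, 0.16 and -0.00 on the log2 scale. No member of this list reached 2-fold in activated cells, where the immunity-related GTPase genes Irgm1 (1327 and 2167) and Iigp1 (5241 and 7725) had the largest ratios, chosen after their values were seen. In memory cells Gbp3, a guanylate-binding protein gene, was 2.22-fold higher, at 1143 and 2539. In regulatory cells Ciita, the activator of class II genes, was 2.03-fold higher, at 79.9 and 162.4. In memory cells it was 1.77-fold lower, at 394.2 and 222.6. Gbp3 was the 1 of 20 past 2-fold in memory cells and Ciita the 1 of 19 in regulatory cells. Among all genes 0.39% in activated, 5.62% in memory and 3.14% in regulatory cells were at least 2-fold higher.

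Secreted and surface effectors of type 1 cells were higher for 16 of 21 measured in activated cells (median 0.30), and 6 of these passed 2-fold. Of all genes there, 48.9% were higher and 0.39% at least 2-fold higher. The cytotoxic granule gene Nkg7 was 3.19-fold higher, at 1499 and 4776, and among the chemokine genes Ccl5 was 2.44-fold, Ccl3 2.23-fold and Ccl4 2.04-fold higher. The chemokine gene Xcl1, also outside the rule for named genes, read 17.6, below the floor, and 127.3, at least 2.67-fold higher. Csf2 read 562.3 and 1163, and Fut7, a fucosyltransferase that builds selectin ligands, was 2.10-fold lower. In memory cells 49.3% of all genes were higher and 5.62% at least 2-fold higher. Of this list 15 of 28 were higher there (median 0.24) and 7 passed 2-fold. Beside Gzma they included Cx3cr1 (131.2 and 1290.4), Gzmk (655.1 and 6215), Gzmb (653.2 and 2547), Il2 (424.2 and 1465) and Ccl3 (107.5 and 291.6). S1pr5, a receptor that NK cells also carry, read 43.3, below the floor, and 1450.5, at least 30.5-fold higher, and lies outside the rule for named genes. In regulatory cells 13 of 26 were higher and 0 reached 2-fold either way, beside 48% and 5.26% of all genes. Of the genes of other helper programmes, 6 of 8 measured were lower in activated, 13 of 17 in memory and 12 of 16 in regulatory cells. Their medians were -0.33, -0.29 and -0.15, and of all genes 48.9%, 49.3% and 48% were higher in these populations. The lists were chosen with earlier results of these data known, and the counts were not tested. In memory cells 3 were at least 2-fold lower, as were 3.64% of all genes. These were Il17rb, the interleukin 25 receptor gene (1002.5 and 206.6), the follicular helper factor gene Ascl2 (235.2 and 67.1) and Il4 (1408 and 427.7). On the memory arrays 0 of 4 innate-like T cell markers were higher in Furin cKO, and the part of such cells in these values was not tested. Ccr4, a receptor of type 2 cells, read 169.6 and 343.4.

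**Figure D3:**
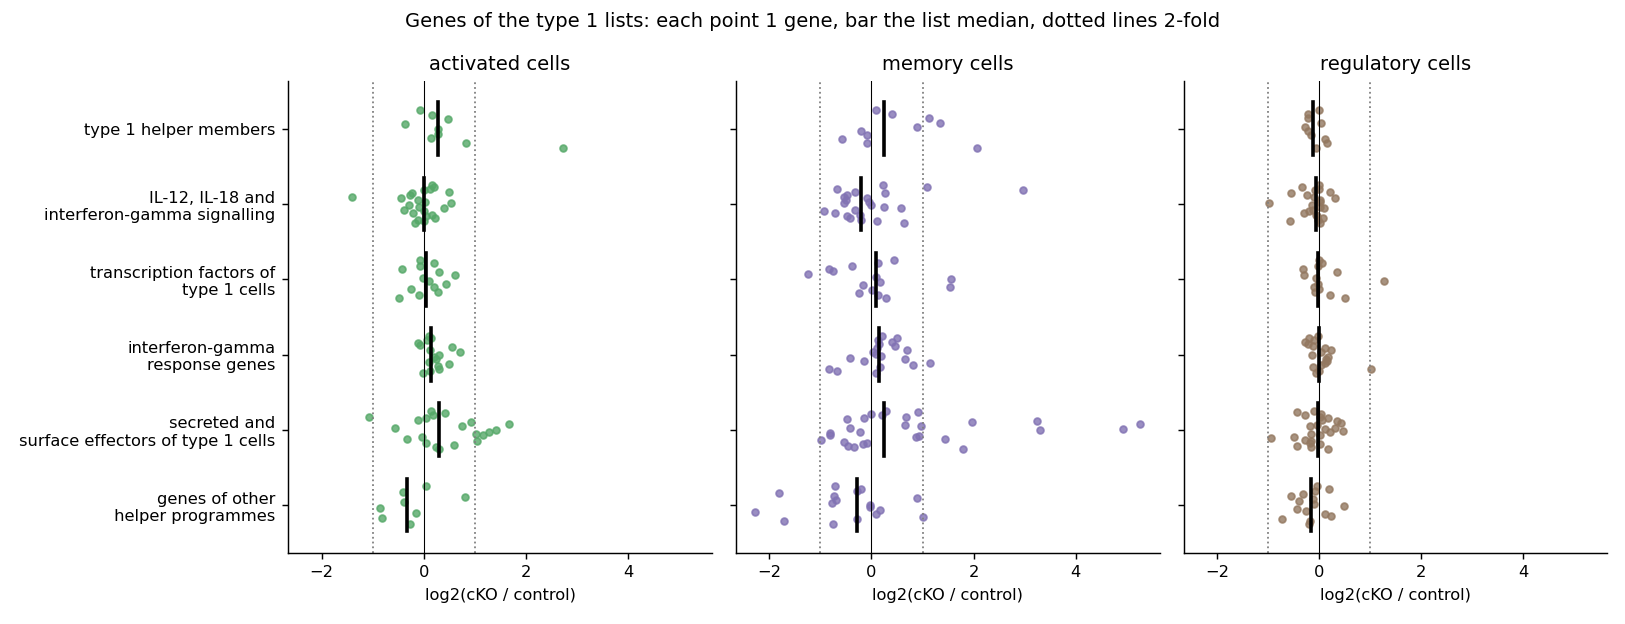
Log2 ratio of the Furin cKO over the control signal (horizontal axis) for the genes of 6 lists in the 3 populations; each point is 1 gene and each black bar the median of its list. The effector list has its median at 0.30 in activated and 0.24 in memory cells and at -0.01 in regulatory cells. The median of the list of other helper programmes lies below 0 in all 3.

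The same genes were compared between the populations with contrasts of that limma fit, in which both genotypes of a population serve as its 2 arrays. The labels name no batch, and culture is part of the activated state. The array's bioB control probe set read 656 and 757.5 in activated, 4144.7 and 2974.4 in memory and 2123.4 and 1808.5 in regulatory cells. Any difference in array handling cannot be told apart from one between populations. Of the 10 members 7 passed an adjusted p of 0.05 between memory and activated cells, 6 of them higher in memory cells. Among all 15811 genes 44.3% passed, 26.9% with the higher level in memory cells, so the count stands beside a large background. By size, 184 genes (1.16%) differed by more than 4 on the log2 scale, a mark chosen after the values were seen, and Il18r1 (6.77 ± 0.45), Cxcr3 (6.64 ± 0.20) and Il18rap (4.92 ± 0.35, each ± SE) were among them, with limma adjusted p-values of 0.0021, 0.0017 and 0.0022.

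The median gene was itself 0.21 higher in memory than in activated cells and 0.23 higher in regulatory than in activated cells, a shift that quantile normalization and cyclic loess take to 0.00. With these the share of called genes that were higher was 48.6% and 47.6% in place of 60.8% for memory cells, and 44.9% and 43.7% in place of 59.4% for regulatory cells. Relative to the median gene Runx3 was 1.38 and Il12rb2 1.81 higher in memory than in activated cells, the latter against activated arrays below the floor. With a floor at the 60th percentile Il12rb2 was at 0.43 before that subtraction and lost its call (adjusted p = 0.21). Tbx21 was 1.12 ± 0.27 higher in memory cells (adjusted p = 0.031, or 0.060 under a floor at the 20th percentile). Il12rb1 was the 1 member lower in memory cells, with a 95% interval of the log2 difference from -1.53 to -0.48 (adjusted p = 0.018).

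Between regulatory and activated cells 6 members passed, beside 44.6% of all genes. Cxcr3 (5.07 ± 0.20), Il18r1 (4.22 ± 0.45), Il18rap (2.23 ± 0.35) and Runx3 (0.76 ± 0.14) were higher in regulatory cells, with limma adjusted p-values of 0.0018, 0.0045, 0.011 and 0.015. Runx3 lost its call with quantile normalization (0.39, adjusted p = 0.085) and with the mean of its probe sets (0.44, adjusted p = 0.24). Tbx21 (-1.78 ± 0.27, adjusted p = 0.0094) and Il12rb1 (-1.62 ± 0.19, adjusted p = 0.0056) were lower in regulatory cells. Ifng was lower in regulatory than in activated cells by -2.04 ± 0.72 (adjusted p = 0.088), and Stat4 by -0.57 ± 0.17 (adjusted p = 0.061). Stat4 passed at that estimate under a floor at the 60th percentile (adjusted p = 0.031) and with an intensity trend in the variance (adjusted p = 0.023). Eomes, at 0.52, passed without the memory arrays (adjusted p = 0.0498).

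Memory and regulatory cells did not differ in any gene at an adjusted p of 0.05 (0 of 15811, 0%), although 3359 genes had an unadjusted p under 0.05 and the smallest adjusted p was 0.052. Of the members 9 had an unadjusted p under 0.05, all 9 with the higher level in memory cells. Ifng differed most, by 3.83 ± 0.72 (adjusted p = 0.098), then Tbx21 by 2.90 ± 0.27 (0.060), Il18rap by 2.69 ± 0.35 (0.074) and Il18r1 by 2.55 ± 0.45 (0.093). With an intensity trend in the variance limma called 155 genes, among them Tbx21 and Cxcr3 (adjusted p-values of 0.037 and 0.042). With a floor at the 60th percentile it called 448, among them Tbx21, Il18r1, Il18rap, Cxcr3 and Runx3. Eomes was the 1 member not higher in memory cells, at -0.25 with a 95% interval from -0.90 to 0.39, so a difference of either sign remains possible. Against activated cells the sign of Eomes turned with the scaling (0.27 in memory cells as deposited, -0.42 with quantile normalization).

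**Figure D4:**
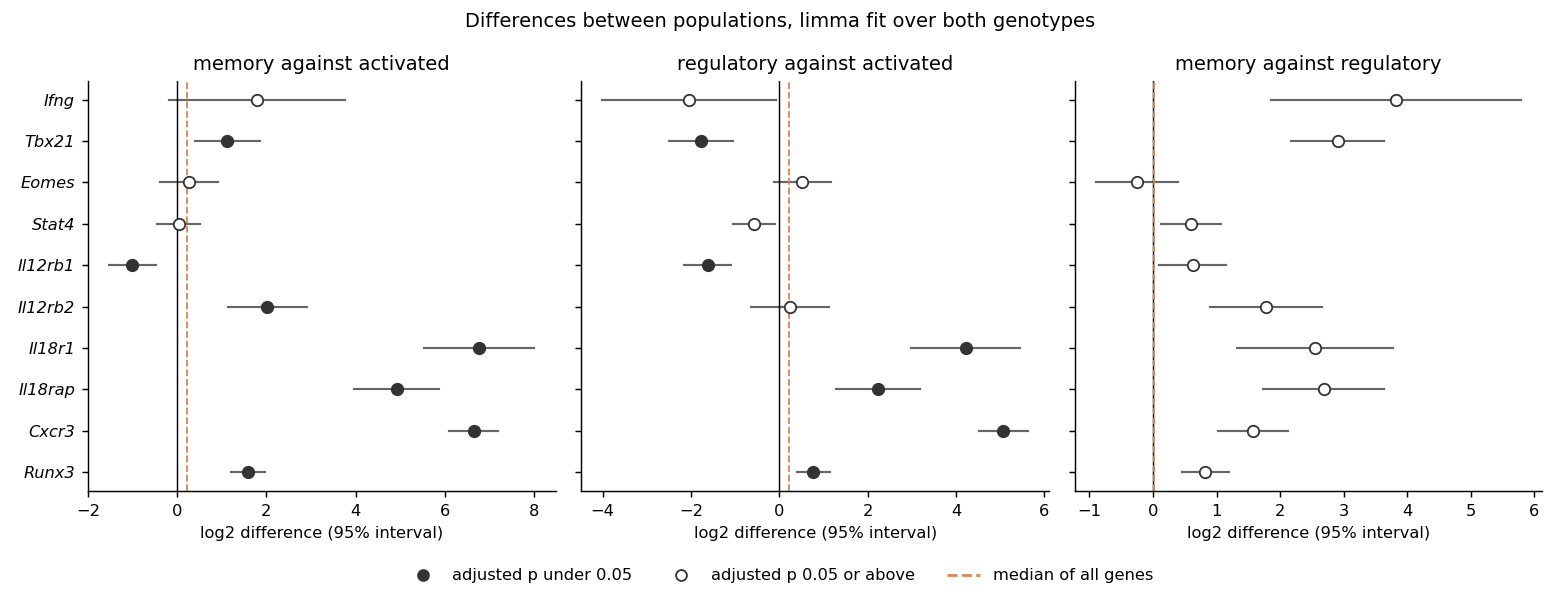
Log2 differences between populations for the 10 genes from the limma fit; points are estimates over both genotypes, lines their 95% intervals, filled points have an adjusted p under 0.05, and the dashed line is the median of all genes. Il18r1, Cxcr3 and Il18rap lie farthest from the median gene against activated cells, and no point is filled between memory and regulatory cells.

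Ordered by level, Ifng, Tbx21, Stat4, Il12rb2, Il18r1, Il18rap, Cxcr3 and Runx3 had their highest mean in memory cells. Eomes had its highest in regulatory cells. For Il18r1, Il18rap, Cxcr3 and Runx3 regulatory cells came second and activated cells last. Here apart means an adjusted p under 0.05, by which regulatory and activated cells were apart and memory and regulatory cells not. That threshold depends on all genes and does not rank the gaps. Memory and regulatory cells differed by 2.69 for Il18rap and 0.82 for Runx3, regulatory and activated cells by 2.23 and 0.76. For Il18r1 (2.55 and 4.22) and Cxcr3 (1.57 and 5.07) the latter gap was the larger. For Ifng and Tbx21 activated cells came second, and the neighbours in that order were apart for Tbx21 but not for Ifng (memory against activated 1.79 ± 0.72, adjusted p = 0.12). Without the regulatory arrays that Ifng difference had an adjusted p of 0.0029. Il12rb1 ran from activated over memory to regulatory cells, with the first neighbours apart and the second not (0.62, adjusted p = 0.19). For Il12rb2 memory, regulatory and activated cells followed each other with no neighbours apart, and Stat4 and Eomes had none either, save Stat4 between activated and regulatory cells in the alternative fits above.

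The genes whose log2 signals followed Ifng most closely over the 6 arrays were Nkg7, Chpt1, Diras1, Hspa1a, Smim3 and Casp1, with Pearson correlations from 0.97 down to 0.92 among 6917 genes ranked. Nkg7 read 1499 and 4776 in activated, 6636 and 10513.7 in memory and 685.8 and 667.5 in regulatory cells. Those most like Tbx21 were Nkg7, Slamf7, Plcg2, Dclre1b, Cd44 and Alkbh2, with correlations from 0.98 to 0.96. Cd44 is a gene of the sort, as memory cells were gated on its protein. Of the members Tbx21 itself correlated with Ifng at 0.90 and Stat4 at 0.81, Il18r1 at 0.31 and Cxcr3 at 0.18. These values describe 6 arrays that share their populations, and many genes reach high correlations over so few points.

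**Figure D5:**
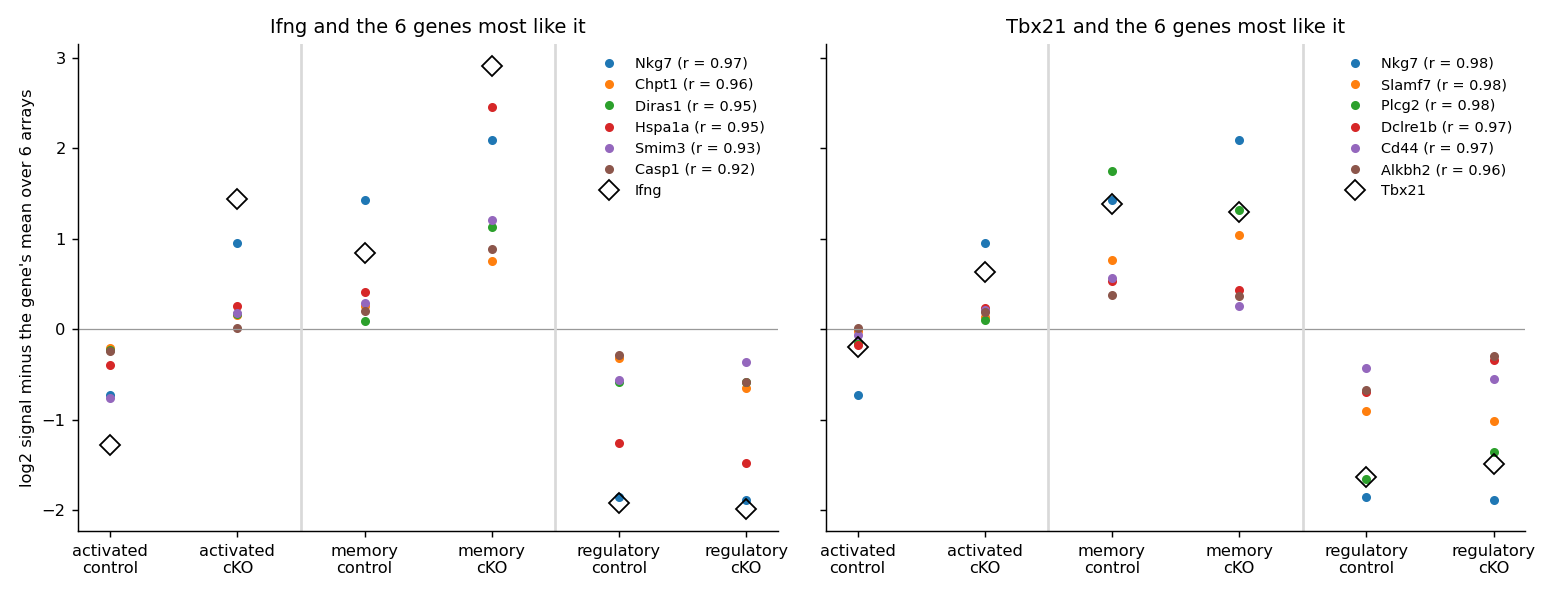
Log2 signal minus each gene's mean over the 6 arrays, for Ifng (left) and Tbx21 (right, open diamonds) and the 6 genes most like each (dots), with Pearson r over the 6 arrays in the legend. Nkg7 heads both lists, at r = 0.97 and 0.98.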

How the data were processed

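Signals are intensities that the authors deposited on a linear scale, with MAS5 as the tool per the submitters' processing notes, its version not given in the sources used. In each deposited array the mean after trimming 2% at each end was 500. Probe sets with 1 gene symbol (34945 of 45037) were named from the platform annotation, and each gene was read from its probe set of highest mean log2 signal after a floor of 47.6 (40th percentile). Ratios are log2 Furin cKO over control, and a gene below the floor on both arrays of a pair was left out. limma 3.58.1 in R 4.3.3 (lmFit and eBayes, population and genotype as factors, 6 arrays) was fitted to 15811 genes with Benjamini-Hochberg adjustment, after a check on simulated data. For arrays, their number limits the precision: there is 1 array a group.

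The members and gene lists were chosen with earlier results of these data known. Named genes are the members, at most 6 genes a list and population past 2-fold (above the floor on both arrays, the brighter at or above 144.8, the 60th percentile), signalling partners, and the 6 genes most like Ifng and Tbx21 (above the floor on at least 4 arrays, log2 range of at least 1, clone names left out). Alternatives were quantile normalization, cyclic loess, floors at the 20th and 60th percentiles, averaged probe sets, a variance trend, and fits without the memory or the regulatory arrays. The fits without the regulatory arrays, and the contrast of regulatory and activated cells without the memory arrays, were added after seeing the data.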

Additional observations from a re-analysis of the deposited data

Results flagged for a closer look

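On the log2 scale of Furin cKO over control, Ifng was at 2.72 in activated and 2.07 in memory cells against -0.066 in regulatory cells. The sign differs, but the regulatory value lies within the scatter of all genes in that pair (0.33) and is no reversal. Il18r1 was at 1.34 in memory and -0.36 in activated cells, where it was dim. Il18rap was at 1.12 in memory and -0.21 in regulatory cells, also within that scatter, where its other probe set had the opposite sign. Members of opposite sign in 2 populations and past 2-fold in 1 of them are given here. The difference between populations was not tested.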

How the results depend on the processing

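Of 142 values for a member within a population under 5 alternatives, 137 moved by less than the scatter of all genes and no value reported as past 2-fold changed sign. Many of them could not move, so the count says little about stability. A changed floor leaves signals above it as they were, and averaging leaves a gene with 1 probe set as it was. Ifng in activated cells moved with quantile normalization (to 2.30). Averaged probe sets moved Eomes and Runx3 in activated and Il18rap and Runx3 in regulatory cells. Members at least 2-fold higher in activated cells numbered 2 under a floor at the 20th percentile (Il12rb2, with 22.1 and 45.9, joined Ifng) and 2 with the mean of the probe sets (Runx3 joined, at 1.35 in place of -0.077), which also gave 1 in regulatory cells. The counts of all genes past 2-fold depended on the floor. In activated cells 468 were higher and 441 lower under a floor at the 20th percentile, 17 and 9 under one at the 60th, 115 and 83 with cyclic loess, and 68 higher with quantile normalization and 66 with the mean of the probe sets. In memory cells they were 2213 and 1527 at the 20th and 258 and 221 at the 60th percentile. In regulatory cells they were 1751 and 1451, 39 and 39, 220 and 201 with cyclic loess, and 282 higher with quantile normalization. The cause was not tested.

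Between memory and regulatory cells limma called 448 genes, 5 of them members, under a floor at the 60th percentile, and 155 genes, 2 of them members, with a variance trend, against 0 otherwise. Estimates that turned sign were small. For genotype they were Stat4 with quantile normalization (-0.017) and cyclic loess (-0.0089) and Eomes with the mean of the probe sets (0.092). Without the memory arrays they were Eomes (0.13), Il12rb1 (0.033), Il12rb2 (-0.14), Il18r1 (-0.16), Cxcr3 (-0.035) and Runx3 (-0.037), and without the regulatory arrays Il12rb1 (0.038). Between memory and activated cells Eomes was at -0.42 with quantile normalization and -0.33 with cyclic loess, and Stat4 at -0.021 with cyclic loess. Between regulatory and activated cells Eomes was at -0.20 and -0.16, and Il12rb2 at -0.33 and -0.29, with quantile normalization and cyclic loess. No paired analysis was possible because the labels give no replicate numbers and each group has 1 array. The genotypes of a population are paired only by population, which is a factor of the fit.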
